A study of Mus musculus with 2 samples.

Results

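Macrophages are phagocytes that clear dying cells, aged cells and expelled red cell nuclei, and they belong to the first blood cells of the embryo. In the fetal liver they settle among maturing red cell precursors, as the centre of the erythroblastic island, and some give rise to the Kupffer cells of the adult organ. The 10 genes described here are C1qa, C1qb, C1qc, Lyz2, Fcer1g, Tyrobp, Csf1r, Mrc1, Adgre1 and Ctss, chosen by name as genes known from macrophages. All 10 were found by symbol among 43346 Ensembl gene rows.

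The tissue was liver of B6NCrl mouse embryos at embryonic day 11.5, pooled from both sexes. There were 2 libraries, biological replicates 1 and 2, made from different tissue samples of pooled embryos with no treatment. The assay is named as single-cell RNA-seq, although the source was pooled tissue. The label of replicate 1 names 109 embryos, and the number in replicate 2 is not given in the sources used here. Each library was built by a SmartSeq protocol, which copies polyadenylated RNA and amplifies it by PCR, from 1 cell-equivalent of RNA with spike-in RNAs added. The libraries held 33289699 and 32607453 estimated reads. Whole liver was taken, so that less RNA of a gene can mean fewer cells or less RNA per cell. At 1 cell-equivalent of RNA it can also mean that few molecules of the gene entered the library. These cannot be told apart. With 1 group of 2 libraries there is no contrast between conditions and no test. The values below are therefore descriptions of these libraries.

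All 10 genes were found in at least 1 library, and 6 of them in both. The genes were chosen with earlier results of these data known, so that their being found at all is no result. Levels are given as TPM, reads divided by the length of the RNA and scaled to a fixed sum, and detection means that a gene reached TPM 1. C1qb, C1qc, Lyz2, Fcer1g, Tyrobp and Adgre1 were detected in both libraries. C1qa and Csf1r were detected in replicate 1 only, and Mrc1 and Ctss in replicate 2 only. Of all 10783 genes detected in either library, 60.1% were detected in both. The count of 6 of 10 is near this background, so it says nothing particular about macrophage genes. Summed over the 10 genes, the share of TPM was 0.0485% in replicate 1, more than the 0.0292% in replicate 2.

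**Figure D1:**
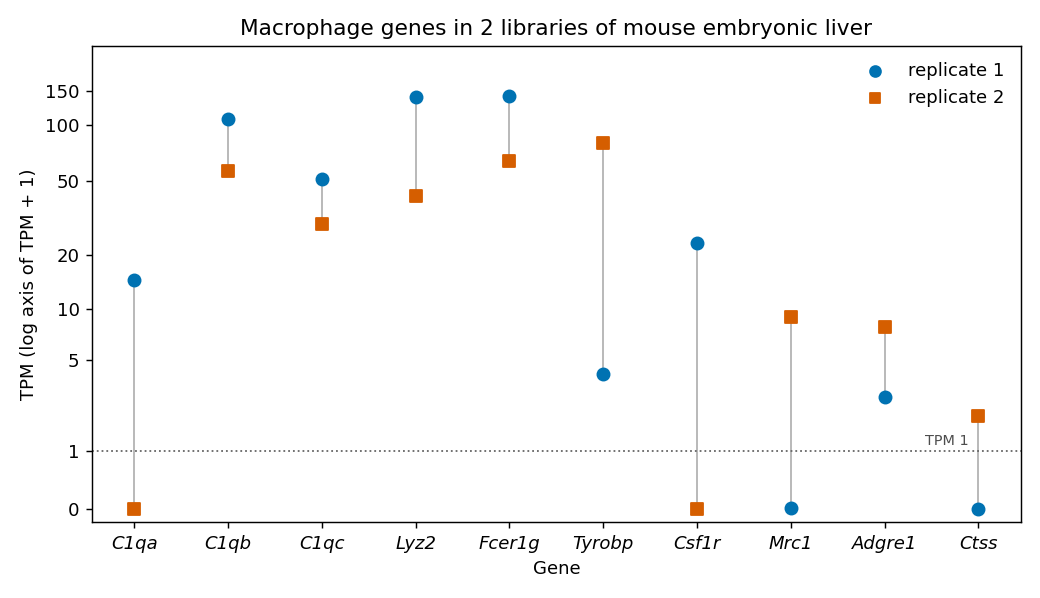
TPM of each macrophage gene in replicate 1 (circles) and replicate 2 (squares), on a log axis of TPM + 1, with a dotted line at the detection limit of TPM 1. C1qb, C1qc, Lyz2 and Fcer1g lie above TPM 20 in both libraries, whereas C1qa, Csf1r, Mrc1 and Ctss each have 1 library near 0.

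The promoters of these genes were read for a motif of PU.1, the ETS-family transcription factor (gene Spi1) on which macrophage development depends. RefSeq windows (GRCm38.p6) of 250 bases before and 50 bases after the gene start were at hand for 6 of the 10 genes. The letters searched were AGGAAGT, on both strands, which overlap the motifs of many other ETS factors. The windows of C1qb, C1qc, Lyz2, Mrc1 and Ctss held 1 match each, and that of Fcer1g held none. Of 32851 mouse windows of the same length, 9.35% held a match. The letters were chosen after the sequences were seen, so setting these genes beside that share is no test. The matches are printed 5′ to 3′ on the strand of the gene, with the match in capitals, to show the shared letters and their differing flanks. All of them read as ACTTCCT, the reverse complement.
C1qb, chr4:136886217-136886283, minus strand: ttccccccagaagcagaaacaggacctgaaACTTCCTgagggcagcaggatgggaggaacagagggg
C1qc, chr4:136893073-136893139, minus strand: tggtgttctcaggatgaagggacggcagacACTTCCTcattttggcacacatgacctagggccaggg
Lyz2, chr10:117282336-117282402, minus strand: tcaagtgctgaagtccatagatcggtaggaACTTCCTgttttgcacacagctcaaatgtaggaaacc
Mrc1, chr2:14229173-14229239, plus strand: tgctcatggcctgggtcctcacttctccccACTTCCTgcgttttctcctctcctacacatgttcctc
Ctss, chr3:95526754-95526815, plus strand: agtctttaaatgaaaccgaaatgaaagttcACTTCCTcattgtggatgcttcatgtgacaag

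Counted from the RefSeq gene start, the match began at -53 in C1qb, -195 in C1qc, -100 in Lyz2, -211 in Mrc1 and -2 in Ctss. The stretch printed for Ctss ends 30 bases after the gene start, to leave out more of the transcribed part. A match of letters is not a binding site, and binding was not measured. Spi1 itself had no read in either library. Where a gene has no read, up to 3 reads remain possible, a CPM of 0.0901 for replicate 1 and of 0.092 for replicate 2. Such limits and the intervals given further on cover counting error alone, since PCR makes several reads of the same RNA molecule.

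C1q is the recognition part of the classical complement pathway, a hexamer of trimers that each hold an A, a B and a C chain, and macrophages are a main source of it. The genes lie side by side on the minus strand of chromosome 4 (mm10), in the order C1qb (136880129 to 136886187), C1qc (136889804 to 136893065) and C1qa (136895917 to 136898803), with 3616 and 2851 bases between them. C1qb, the B chain, had 107 TPM in replicate 1 and 56.6 in replicate 2, from 3133 and 1643 reads. C1qc, the C chain, had 51.7 and 29.5 TPM from 1688 and 956 reads. C1qa, the A chain, had 14.7 TPM in replicate 1, from 408 reads, but was without a read in replicate 2.

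C1qb was above C1qc in both libraries, and C1qa was lowest in both. The ratio of C1qb to C1qc in TPM was 1.99 ± 0.109 (SD, n = 2), with 2.07 in replicate 1 and 1.92 in replicate 2. In replicate 1 C1qb stood 7.31 times and C1qc 3.53 times above C1qa. In replicate 2 the share of reads of C1qa was at least 133-fold lower than in replicate 1, taking 3 reads as the floor of that library. The chains of 1 protein complex thus had unequal RNA levels. The read share of C1qb was 1.87-fold and that of C1qc 1.73-fold higher in replicate 1, less than the difference for C1qa. Of all values of 10 to 20 TPM, where C1qa stood in replicate 1, 35.6% were under TPM 1 in the other library.

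Fcer1g and Tyrobp code for small membrane adaptors, FcRγ and DAP12, which carry the signal of receptors that have no signalling tail of their own. Their tails hold an ITAM, a tyrosine motif that recruits the kinase Syk. Fcer1g (chromosome 1, 171229572 to 171234365, minus strand) had 141 TPM in replicate 1 and 64.4 in replicate 2, from 2396 and 1088 reads. Tyrobp (chromosome 7, 30413760 to 30417585, plus strand) had 4.07 TPM from 56 reads in replicate 1 and 80.4 TPM from 1098 reads in replicate 2. Fcer1g was thus 34.6 times as high as Tyrobp in replicate 1 and 0.801 times as high in replicate 2, so the order of the adaptors was not the same in the libraries. The share of reads of Tyrobp was 20.02-fold higher in replicate 2, with an exact 95% counting interval of 15.3 to 26.7.

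The list held 12 genes for chains of receptors that use these adaptors. Of these, 5 were detected in either library, 2 in replicate 1 only and 3 in replicate 2 only, and the other 7 had no read. None of the 5 was detected in both, where 60.1% of all detected genes were, and this difference was not tested on so short a list. The IgG receptors Fcgr3 and Fcgr1, which pair with Fcer1g, had no read in replicate 1 and 55.6 and 17.7 TPM in replicate 2. Fcgr4, named after its values were seen, had no read and 8.06 TPM. Gp6, the collagen receptor of platelets and another partner of Fcer1g, went the other way with 51.3 and 0.03 TPM. Trem2, a partner of Tyrobp also named after its values were seen, had 1.03 TPM in replicate 1, from 30 reads, and 0 in replicate 2. Trem1, Clec5a and Sirpb1a had no read.

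Of 11 signalling genes downstream of the ITAM, 9 were detected in either library and 6 in both, a share near the 60.1% over all genes. The kinase Lyn had 25.3 and 30.8 TPM, the phosphatase Ptpn6 24.0 and 27.1, and the kinase Btk 32.7 and 2.24. Fgr, a Src-family kinase of myeloid cells, had no read in either library.

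Csf1r, Mrc1 and Adgre1 code for surface receptors. Csf1r, the receptor of the growth factor CSF1 on which most macrophages depend (chromosome 18, 61100598 to 61132149, plus strand), had 23.5 TPM in replicate 1, from 2995 reads, and was without a read in replicate 2. Against the floor of 3 reads, Csf1r took a share at least 978-fold lower there. Mrc1, the mannose receptor CD206, also known from sinusoidal endothelium (chromosome 2, 14229392 to 14332057, plus strand), had 0.01 TPM from 1 read in replicate 1 and 9.04 TPM from 1401 reads in replicate 2. Its ratio of read shares was 1430 with an exact 95% counting interval of 256 to 56534, so that replicate 1 fixed it poorly. Adgre1, the F4/80 antigen used to mark mouse macrophages (chromosome 17, 57358691 to 57483527, plus strand), had 2.83 and 7.92 TPM from 263 and 705 reads. The read share of Adgre1 was 2.74-fold higher in replicate 2 (2.37 to 3.17), and of these 3 receptors it alone was detected in both libraries.

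The last exons of Csf1r lie over those of Hmgxb3, a gene on the opposite strand. In the leading Csf1r transcript, 873 of 4701 exon bases were shared with Hmgxb3 exons. Without strand, reads from these bases cannot be told apart, and the sources used here do not say whether the counting used strand. Hmgxb3 had 21.9 TPM in replicate 1 and 0 in replicate 2, as Csf1r did. The other Csf1r transcript shares no exon base with Hmgxb3, and it was assigned 896 reads and 8.04 TPM in replicate 1.

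The ligands of Csf1r were near 0, and relatives of these receptors varied in level. Csf1 had 1 read in replicate 1 and none in replicate 2, and Il34, the other ligand of Csf1r, had none. Of 7 colony-stimulating factor genes and receptors, 3 were detected in either library and none in both, against 60.1% of all detected genes. This difference was not tested on so short a list. Csf2ra and Csf2rb, the receptor chains for GM-CSF, had 35.5 and 9.23 TPM in replicate 2 and no read in replicate 1. Csf3r, the receptor of G-CSF, had 8.23 TPM in replicate 1 and no read in replicate 2. Mrc2, the relative of Mrc1, had no read. The Adgre1 relatives split, with Adgre5 at 16.1 and 0 TPM and Adgre4 at 0 and 2.53. Of 9 lectins and scavenger receptors, 6 were detected in either library and 3 in both, against 60.1% of all detected genes. The 3 include Stab2, a scavenger receptor of sinusoidal endothelium, at 15.9 and 31.4 TPM, and Timd4, a phosphatidylserine receptor of resident macrophages, at 12.2 and 25.7. Marco, a scavenger receptor, had 20.2 TPM and then no read.

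Lyz2 and Ctss code for enzymes that act on engulfed material. Lyz2, lysozyme M, which cuts bacterial cell walls (chromosome 10, 117277331 to 117282321, minus strand), had 140 TPM in replicate 1 and 41.9 in replicate 2, from 4828 and 1435 reads. Its read share was 3.30-fold higher in replicate 1 (3.11 to 3.50, counting error). Ctss, the cysteine protease cathepsin S of antigen-presenting cells (chromosome 3, 95526786 to 95556403, plus strand), had no read in replicate 1 and 2.03 TPM from 75 reads in replicate 2. Ctss had the lowest mean TPM of the 10 genes. A processed pseudogene lies within the span of Ctss, but shares no base with its exons.

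Lyz2 has a close copy, Lyz1, 5475 bases away (117287797 to 117292868), known from Paneth cells of the gut. The coding sequences, 447 bases long, differ at 22 bases, an identity of 95.1%. The stretch with most differences, coding bases 61 to 120 counted from the A of the start codon, is printed with the differing bases in capitals, because these bases let reads be told apart.
Lyz2: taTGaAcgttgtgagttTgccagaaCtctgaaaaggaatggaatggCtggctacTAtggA
Lyz1: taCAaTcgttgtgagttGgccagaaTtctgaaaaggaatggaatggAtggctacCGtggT

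Lyz1 had 0.03 TPM from 1.02 estimated reads in each library. Of the 1217 windows of 100 bases in the Lyz2 transcript of GENCODE M21, 24 occurred in Lyz1 too, a share of 1.97%. By that transcript nearly all such reads could be assigned. It has 1316 bases, whereas the Lyz2 transcript of the deposited counts has 1266, and windows of the latter were not compared. Lyz1 was thus near 0 where Lyz2 was among the highest of the 10 genes. The promoter windows of the copies were 82.5% identical, and that of Lyz1 held the same motif letters at the same position of -100 from the gene start:
Lyz1, chr10:117292932-117292998, minus strand: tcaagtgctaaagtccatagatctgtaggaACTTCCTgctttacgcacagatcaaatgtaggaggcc

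Of 12 cathepsins, inhibitors and related genes, 9 were detected in either library and 8 in both, against 60.1% of all detected genes. Ctsd, the aspartic protease cathepsin D, had 575 and 197 TPM, Ctsz 245 and 148, and Cst3, a secreted inhibitor of cathepsins, 222 and 161. These are expressed in most cell types. Ctsh and Ctsk, and Cd74, the chaperone of MHC class II that cathepsin S processes, had no read in either library.

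In order of mean TPM the genes detected in both libraries ran from Fcer1g at 103 ± 54.1 (SD, n = 2) over Lyz2 at 90.9 ± 69.4, C1qb at 81.9 ± 35.8, Tyrobp at 42.2 ± 54.0 and C1qc at 40.6 ± 15.7 to Adgre1 at 5.38 ± 3.60. From Fcer1g to C1qc, neighbours in this order differed by less than the larger SD of the pair. In replicate 1 Fcer1g led, above 87.3% of the detected genes, and Lyz2 followed, above 87.2%. In replicate 2 Tyrobp led, above 77.9%, and Lyz2 stood above 63.2%. The top 4 genes of replicate 1, Fcer1g, Lyz2, C1qb and C1qc, held 90.7% of the summed TPM of the 10 there. The top 4 of replicate 2 were Tyrobp, Fcer1g, C1qb and Lyz2, with 83.4%.

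Between the libraries the genes moved in both directions. Differences were log2 ratios of replicate 2 over replicate 1 on the TPM + 1 scale, centred on the median of genes whose mean TPM reached 10, with a rule of size of 2-fold and no test. Of the 6 macrophage genes at that mean, 3 were higher in replicate 1, namely Lyz2 (-1.74), Fcer1g (-1.14) and Csf1r (-4.64), and 1 in replicate 2, Tyrobp (3.98). C1qb (-0.94) and C1qc (-0.82) stayed within 2-fold. Csf1r reached the mean of 10 only through replicate 1 (23.5 and 0 TPM), and Tyrobp only through replicate 2 (4.07 and 80.4 TPM). Their calls, and the median ratios of the 6 genes, thus follow in part from this filter, which the background genes passed too. Among all 6801 genes at that mean, 25.8% were higher in replicate 1 and 25.2% in replicate 2. The median ratio of the 6 genes was -1.04, and their median absolute ratio 1.44 against 1.03 over all 6801. Below that mean, C1qa (-4.00) was higher in replicate 1, and Mrc1 (3.29), Ctss (1.57) and Adgre1 (1.19) in replicate 2. For Csf1r, C1qa, Mrc1 and Ctss, with 1 read or none in a library, the pseudocount sets the size of the ratio. With a pseudocount of 0.1 the ratios were -7.91 for Csf1r, -7.23 for C1qa, 6.35 for Mrc1 and 4.39 for Ctss, of the same sign, and the share of reads of Ctss was at least 25.5-fold higher in replicate 2. Each replicate is 1 library, so none of these differences has a replicate check.

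**Figure D2:**
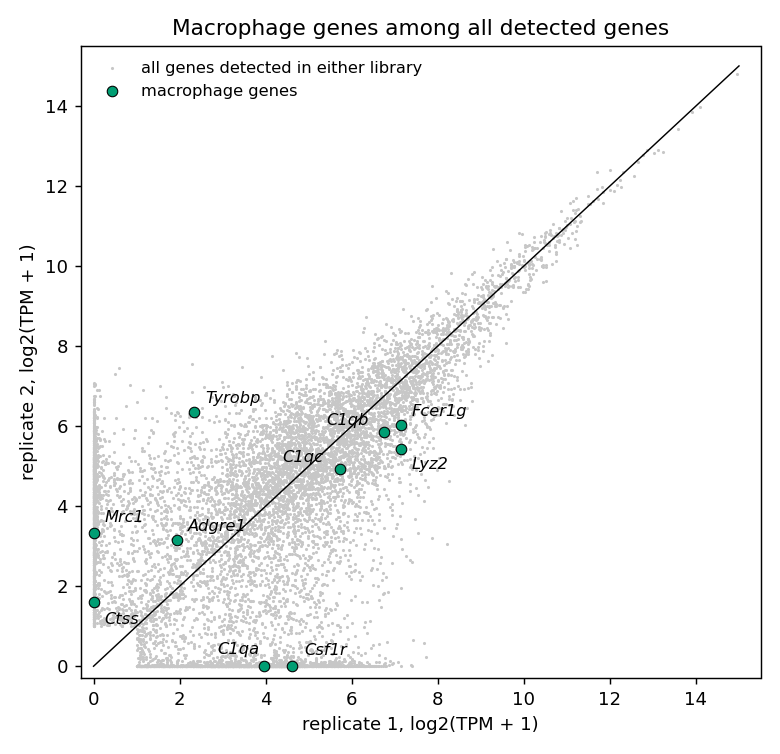
Level of every gene detected in either library, as log2(TPM + 1) in replicate 1 (horizontal) and replicate 2 (vertical), with the macrophage genes in green and the line of equal level. C1qa and Csf1r lie on the horizontal axis and Mrc1 and Ctss on the vertical axis, where many other genes lie too, and Tyrobp stands above the line at 4.07 and 80.4 TPM.

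When the ratios were centred on 40 spike-ins instead of the genes, all of them shifted by -0.39. Then 5 of the 6 genes were higher in replicate 1, C1qb and C1qc having joined, and 1 was higher in replicate 2. Over all 6801 genes the shares became 33.0% and 19.9%. On that scale Adgre1, at 0.80, was within 2-fold.

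The differences were larger than the error of read counting in every case. The deposited credibility intervals of TPM, which cover the estimate from the reads of 1 library, lay apart for all 10 genes. Among all genes whose mean TPM reached 10 they lay apart for 91.3%, and for 6 of the 6 macrophage genes at that mean. For C1qb they ran from 102 to 109 TPM in replicate 1 and from 52.9 to 58.3 in replicate 2. This background shows that the intervals hold the spread of reads and not that between libraries, so they are no error of the level in the tissue.

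How often a gene was found in 1 library but not in the other varied with its level. Of all values of 1 to 5 TPM, 43.0% were under TPM 1 in the other library, and the share was 39.6% at 5 to 10, 35.6% at 10 to 20, 25.0% at 20 to 50, 10.1% at 50 to 100 and 2.19% at 100 to 200. The 4 genes found in 1 library alone each lay in a different range, Ctss in the lowest, then Mrc1, C1qa and Csf1r. None of the 7 values of the macrophage genes at 50 TPM or more was missed in the other library.

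**Figure D3:**
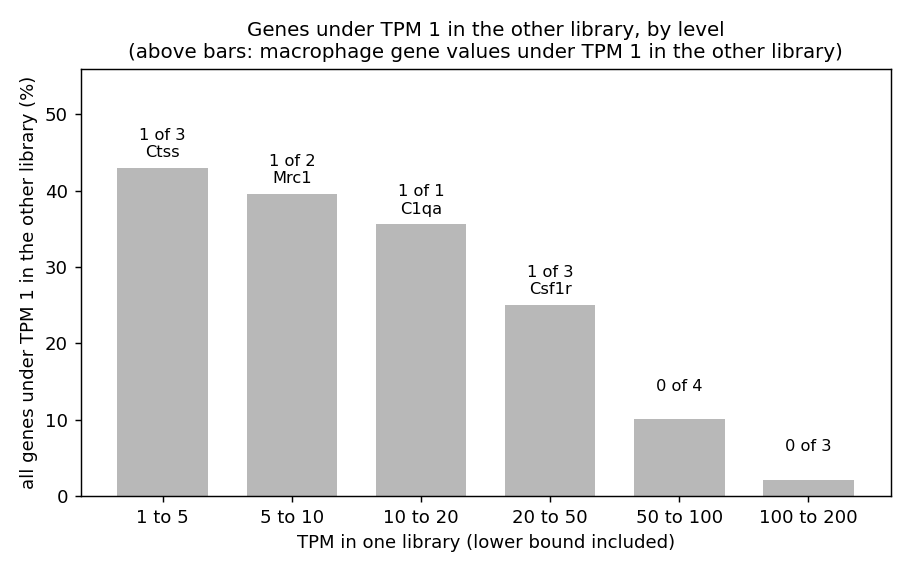
Share of all genes at a given TPM in 1 library that were under TPM 1 in the other (bars, percent), for 6 ranges of TPM, both directions pooled. The share falls from 43.0% to 2.19%, and the text above each bar gives the macrophage gene values in that range that were under TPM 1 in the other library, with the gene.

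The deposited tables split the 10 genes into 17 transcripts, and 6 of the genes had more than 1. For 4 of these with reads in both libraries the leading transcript, that of highest TPM, could be compared, and it was the same for Mrc1, C1qc and Fcer1g. For Mrc1 it rested on 1 read in replicate 1, so this comparison says little there. Among all 5921 genes with reads in both libraries and more than 1 transcript it was the same for 60.2%. Among the 4448 of these at a mean TPM of 10 or more it was the same for 62.4%. Adgre1 differed. In replicate 1 all of its abundance was assigned to a transcript of 3245 bases, and in replicate 2 95.6% to a transcript of 3124 bases, with 263 and 673 reads behind these values. Csf1r, read in replicate 1 only, was assigned to a transcript of 4701 bases for 65.8% and to one of 3870 bases for 34.3%. Fcer1g had 99.85% and 100% on the same transcript of 674 bases.

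The name of the gene set was checked against other macrophage markers. Of 18 further markers, 2 were detected in both libraries, 4 in replicate 1 only, 4 in replicate 2 only and 8 had no read. Thus 2 of 10 detected markers were found in both, where 60.1% of all detected genes were, a difference that was not tested. Laptm5, a lysosomal membrane protein of blood cells, had 57.7 and 97.2 TPM, and Timd4 was the other gene found in both. Lgals3, galectin 3, had 98.0 and 0.08 TPM. The classical markers Cd68, Cd163 and Vsig4 had no read in either library. The summed TPM of these 18 genes was 198 in replicate 1 and 169 in replicate 2. The name of the set rests on the 10 listed genes, since 8 of these 18 markers had no read.

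Transcription factors of the myeloid lineage were found in part. Of 14 listed, 4 were detected in both libraries, 2 in each library alone and 6 in neither. Thus 4 of 8 detected factors were found in both, against 60.1% of all detected genes. Id3, which Kupffer cells require and many other cells express, had 330 and 76.5 TPM, Nr1h3, the oxysterol receptor LXRα, 43.6 and 108, and Runx1, a factor of blood stem cells, 23.2 and 19.5. Spi1 had no read, as given above, and Cebpb had 0.19 and 0.36 TPM.

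Of 11 genes for the work of island macrophages, 8 were detected in either library, 5 of them in both and 3 in replicate 1 only, a share near the 60.1% over all genes. Hmox1, haem oxygenase, which breaks down haem, had 148 and 54.9 TPM. Maea, the erythroblast macrophage protein, had 88.6 and 53.1, and Slc40a1, the iron exporter ferroportin, 89.6 and 39.9. Red cell precursors or hepatoblasts can express these genes too. The clearance receptor Mertk, its ligand Gas6, and Spic, a factor of iron-recycling macrophages, had no read.

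The partners of C1q in the pathway were led by genes that hepatocytes also make. C3, the central complement protein, had 52.2 and 35.3 TPM and Serping1, the inhibitor of C1, 45.6 and 19.9. These were the 2 of 8 detected in both, and 4 were detected in either library. Of all detected genes, 60.1% were found in both. C1s1, a protease of the C1 complex, had 20.6 and 0 TPM. C1ra, C1rb and C1s2, the other C1 proteases, had no read.

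Several of the 10 genes are not restricted to macrophages. Lyz2, Fcer1g and Tyrobp are also known from granulocytes, Fcer1g from mast cells and platelets, and Ctss from dendritic cells. Of 13 granulocyte markers, 9 were detected in either library and 5 in both, with a summed TPM of 978 and 654. Of the calprotectin chains, S100a8 had 281 and 288 TPM and S100a9 had 395 and 64.5. Myeloperoxidase, Mpo, stood at 153 and 127, while Camp, Ly6g and Mmp8 were under TPM 1 in both. Of 10 megakaryocyte markers, 9 were detected in either library and 5 in both. For both lists 5 of 9 is near the 60.1% over all genes. Megakaryocyte markers summed to 1063 and 1268 TPM, with platelet factor Pf4 at 754 and 998. Their part in the levels of Lyz2, Fcer1g and Tyrobp was not tested.

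Mast cell and dendritic cell markers were detected in part. Of all 43346 Ensembl genes, 10783 were detected in either library, so the low counts of these lists are no result about these cells. Of 8 mast cell genes, 2 were detected in either library and 1, Kit, in both, against 60.1% of all detected genes. Kit had 29.7 and 30.7 TPM. Kit marks blood progenitors as well. The proteases Cpa3, Cma1 and Tpsb2 had no read. Of 8 dendritic cell markers, 3 were detected in either library and none in both, against 60.1% of all detected genes. The 3 were H2-Ab1 at 0 and 25.8 TPM, Flt3 at 13.3 and 0.02 and Zbtb46 at 7.12 and 0.01. Itgax and H2-Aa had no read, and all 8 lymphoid and NK cell markers had none. Of 12 sinusoidal endothelial markers, which bear on Mrc1, 10 were detected in either library and 6 in both, near the 60.1% over all genes. Their summed TPM was 151 and 147. Lyve1, a hyaluronan receptor, had 44.6 and 22.6 TPM, Esam 23.2 and 36.3 and Egfl7 20.6 and 30.7. Of the members of this list, Pecam1 (0 and 6.88 TPM), Tek (0.02 and 7.28) and Cdh5 (0.57 and 1.02) passed TPM 1 in replicate 2 only, as Mrc1 did, and Oit3 (33.7 and 0) in replicate 1 only. These 4 were named after their values were seen. The part of endothelial cells in Mrc1 was not tested.

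**Figure D4:**
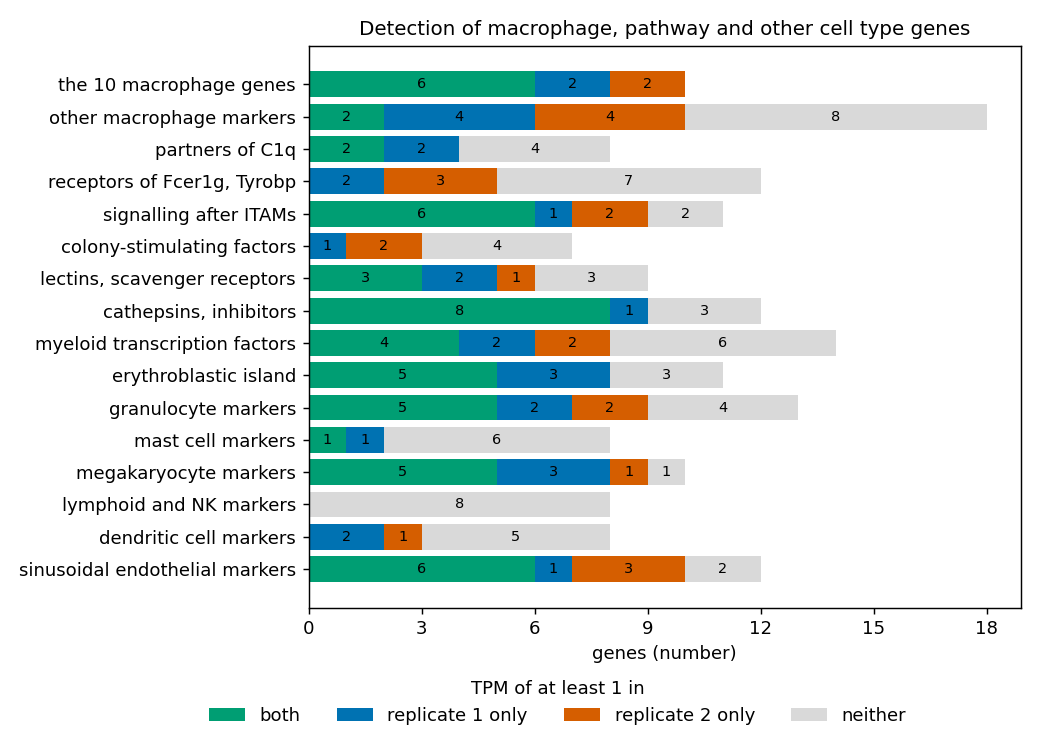
Number of genes that reached TPM 1 in both libraries, replicate 1 only, replicate 2 only or neither, for the 10 macrophage genes and 15 lists of related or other cell types. Of the 10 macrophage genes, all detected in either library and chosen with earlier results known, 6 are found in both, against 60.1% of all detected genes. Of the other macrophage markers 10 are detected in either library and 2 in both.

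Of the 10 genes without Lyz2, Fcer1g, Tyrobp and Ctss, 6 remained, and C1qb, C1qc and Adgre1 were the 3 of these detected in both libraries. Their summed TPM was 0.0151% of the library on average, against 0.0388% ± 0.0137 (SD, n = 2) for all 10.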

How the data were processed

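For each library, gene and transcript tables were at hand. Their deposited expected counts estimate the reads of a gene and can be fractional. The deposited TPM and posterior mean TPM values are scaled for effective length over all rows, spike-ins included. The deposited transcript tables also give the percent of a gene's abundance on each transcript. Per the labels the build is mm10, and per the notes deposited with the samples the annotation is GENCODE M4. For the aligner, counting program and strand setting, names were not given in the sources used here.

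Symbols, coordinates, transcripts and exons were taken from GENCODE M21 (GRCm38, the same build), matched on identifiers without version. Promoters came from RefSeq (GRCm38.p6). Detection was TPM of at least 1. Log2 ratios used a pseudocount of 1. Folds of read shares used expected counts, with a floor of 3 reads per library and exact (Clopper-Pearson) 95% intervals. The computations used Python 3.11.15, pandas 2.3.3 and scipy 1.17.1, and were tested on simulated data.

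The macrophage genes and the 17 other lists were chosen with earlier results of these data known. The PU.1 motif and the ratio of C1qb to C1qc were chosen after the sequences and values were seen. From each other list the text names the 3 genes of highest mean TPM and up to 3 genes under TPM 1 in both libraries, and says where others are named. A few genes that this rule would name are not reported here. With 2 libraries no genes of like pattern were sought.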

Additional observations from a re-analysis of the deposited data

How the results depend on the processing

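The 27 results were recomputed under 147 alternatives. Of these, 24 set 1 library against the mean of both, which lies within 1 SD by construction and says nothing of stability. Of the other 123, 115 kept their direction and their side of the rule, stayed within the spread or, for counts of genes, changed by a limited fold. Changes of counts from 6 to 4, from 6 to 8 and from 3 to 2, given below, are thus among the 115. The 8 are genes detected in a single library and the 6 in both, which are unlike measures. Many of the 115 could hardly have moved. Sums over transcripts restate the TPM of the gene, and the SD of 2 libraries is wide. For C1qa it was 10.4, above the mean TPM of 7.335. The count of 115 is thus no measure of stability. None of the 60 alternative log2 ratios of single genes changed sign. All of them used the same 2 libraries, and the largest shift from centring, -0.39, was less in size than the smallest ratio, -0.82 for C1qc. Centring could thus reverse none of them. With a pseudocount of 0.1 the ratio of Csf1r became -7.91, of C1qa -7.23, of Mrc1 6.35 and of Ctss 4.39. Without Lyz2, Fcer1g, Tyrobp and Ctss the number of genes detected in both libraries was 3 and the share of TPM 0.0151%, since fewer genes are counted. Centring on spike-ins gave 5 genes 2-fold higher in replicate 1, and centring on all genes whose mean TPM reached 1 gave a median log2 ratio of -0.94, under 2-fold. By expected counts, not scaled for length, the ratio of C1qb to C1qc was 1.79. Asking for TPM 10 left 4 genes detected in both libraries. Taking each library alone gave 8 detected genes either way, shares of 0.0292% and 0.0485% of TPM, and ratios of C1qb to C1qc of 1.92 and 2.07. By posterior mean TPM, 2 genes kept their leading transcript, and Mrc1, with 1 read in replicate 1, did not. No paired analysis was possible because there is 1 group. At 1 cell-equivalent of RNA a level of up to about 50 TPM was often missed in 1 library, so a gene without reads is not shown to be absent.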

Other observations

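Genes next to the macrophage genes varied widely in level. Fcer1g lies 3192 bases from Apoa2, an apolipoprotein gene of hepatoblasts, which had 2514 and 2201 TPM. Tyrobp lies 126 bases from Hcst, the related adaptor DAP10 on the opposite strand, which had no read in either library. C1qa lies 30615 bases from Epha8 and C1qb 44140 bases from Ephb2, receptors of the ephrin family, with 0 and 0 TPM for Epha8 and 2.12 and 0 for Ephb2. Csf1r lies 15536 bases from Pdgfrb, a related receptor of mesenchymal cells, which had 11.01 TPM in replicate 1 and 0.01 in replicate 2. Pdgfrb was thus higher in the same library as Csf1r. On the other side Slc26a2, 60769 bases away, went the other way with 0.02 and 76.1 TPM. These neighbours were named after their values were seen, and no relation between neighbours was tested.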
